A study of Rattus norvegicus with 12 samples.

Results

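Oxaliplatin is a platinum drug that binds DNA and crosslinks its strands, and painful neuropathy of the hands and feet is a well known side effect of it. The dorsal root ganglion, beside the spinal cord and outside the blood-brain barrier, holds the cell bodies of sensory neurons together with satellite glia, Schwann cells, vessels, connective tissue and resident immune cells. RNA of whole ganglia was compared here between 4 libraries from rats injected intraperitoneally with oxaliplatin (2.4 mg/kg, dissolved in glucose solution) and 4 from rats given vehicle, chosen by their titles as 8 of the 12 libraries of the study. The other 4 libraries came from rats given paclitaxel at a dose of 2.0 mg/kg (in saline, from a DMSO stock); they shared the fit that set the spread and entered a direct test against oxaliplatin. The study asks how gene expression in the ganglion differs between the neuropathies that these drugs cause. The labels give no strain, age, sex, injection schedule, time of sampling or ganglion level, and do not say which solvent the vehicle rats received or whether each library came from a separate animal. The p-values therefore reflect only how far these libraries differ from each other, which may be technical variation, and a solvent effect cannot be told apart from that of the drug.

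Each library held between 17008728 and 17615736 estimated counts. The expression of a gene is given as CPM, the count scaled to the library total by TMM, which reflects how many counts lie behind a value. Levels of different genes as such are given as FPKM, which allows for transcript length. Markers of sensory neurons were present throughout: mean FPKM in vehicle was 1444 for Prph, a neuronal intermediate filament, 751 for Nefh, the heavy neurofilament, 51.6 for Rbfox3, a neuronal splicing factor, and 23.4 for Isl1, a sensory neuron transcription factor. Mbp, myelin basic protein, stood at 1237 FPKM. Cd3e, a T-cell receptor subunit, was too low to be tested. On the first 2 principal components of all tested genes, which held 24.8% and 16.7% of the variance, the vehicle libraries lay between -25.9 and -10.5 on the first and the oxaliplatin libraries between 6.96 and 42.6. Oxaliplatin 1 lay farthest out on the first component (42.6) and oxaliplatin 4 on the second (35.8).

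After oxaliplatin 278 of 15809 tested genes passed the test (1.76%; edgeR's quasi-likelihood test, Benjamini-Hochberg adjusted p under 0.05), 166 higher (1.05%) and 112 lower (0.708%). Of these, 47 higher and 2 lower genes belong to the p53, cell cycle or circadian clock lists, which leaves 119 and 110 genes outside these lists. The lists are not complete, so genes outside them can still belong to these themes. Examples are Ccnf, cyclin F, Kifc1, a motor of the mitotic spindle, and Rbm38, a p53 target. The 2 lower genes on the lists are Arntl, a core clock gene, and Gadd45a, a growth arrest gene. Without that threshold, 876 genes (5.54%) had all 4 oxaliplatin libraries above all 4 vehicle libraries, and 912 (5.77%) had them below. Only Bmp7 among the 278 called genes had groups that overlapped. Genes named below for p, fold or level had to have groups without overlap, so clear separation in them follows from the choice. The median log2 fold change over all tested genes was 0.0094, and 51.7% of them lay above 0. The split between directions moved with the scaling: 189 genes were higher and 63 lower when counts were scaled to library totals alone, which raised the median of all genes to 0.0426.

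The genes that rose and those that fell differed in level and in the size of their change. Genes called higher had a median expression of 12 CPM over the 8 libraries and a median fold change of 1.80, and 68 of them rose more than 2-fold and 13 more than 4-fold. Genes called lower had a median of 72.0 CPM and a median fold change of 1.36, and 3 of them, Smim18, Ankrd24 and LOC103694506, a gene with no other name in the files, fell more than 2-fold; the last was picked out after its values were seen. Per transcript length the medians were 3.77 FPKM for higher, 32.1 for lower and 8.48 for all tested genes. Median transcript lengths were 3194, 2308 and 2548 bases in the same order. In the lowest 3 deciles of expression 14, 27 and 34 genes were called higher and 0, 2 and 4 lower, whereas the top decile, from 134 CPM up, held 9 higher and 32 lower. The median log2 fold change of all genes in a decile went from 0.10 in the lowest to -0.07 in the highest. A small change passes the test more easily in an abundant gene, and the part of depth in this contrast was not tested.

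**Figure D1:**
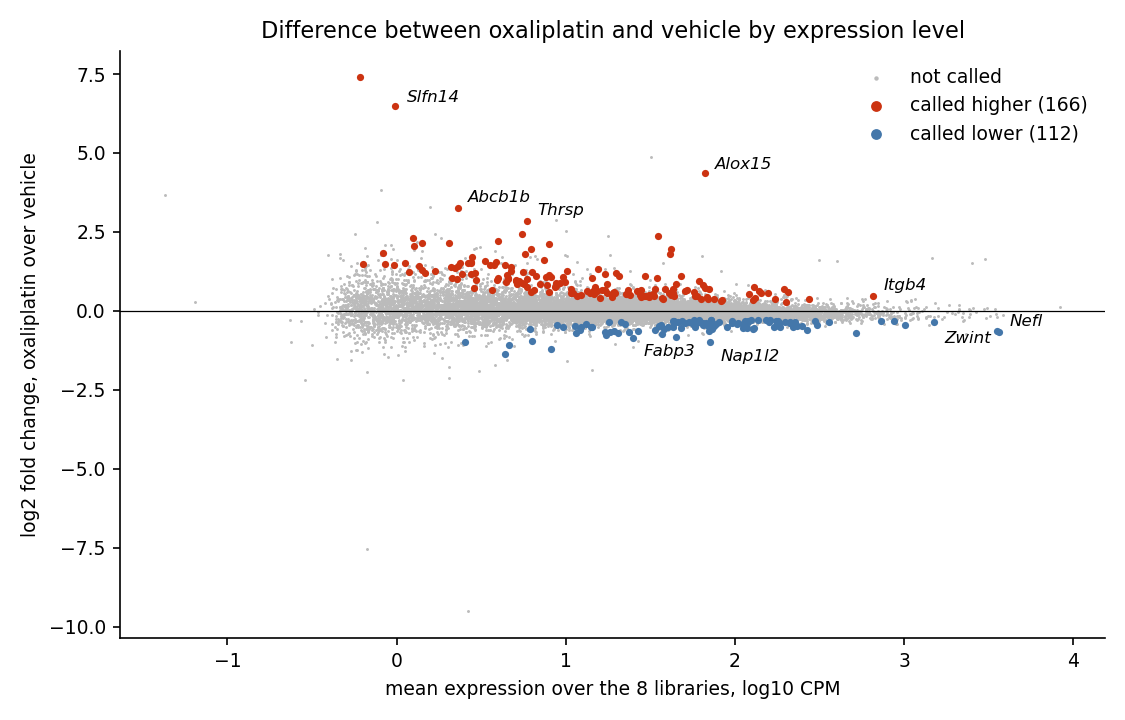
Each point is 1 of 15809 tested genes, by mean expression over the 8 libraries (log10 CPM, horizontal) and by log2 fold change of oxaliplatin over vehicle (vertical). The 166 genes called higher (red) spread over low levels and reach large folds, while the 112 called lower (blue) lie closer to 0 and at higher levels; for Slfn14, near 0 in vehicle, the fitted fold depends on the prior count.

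**Figure D2:**
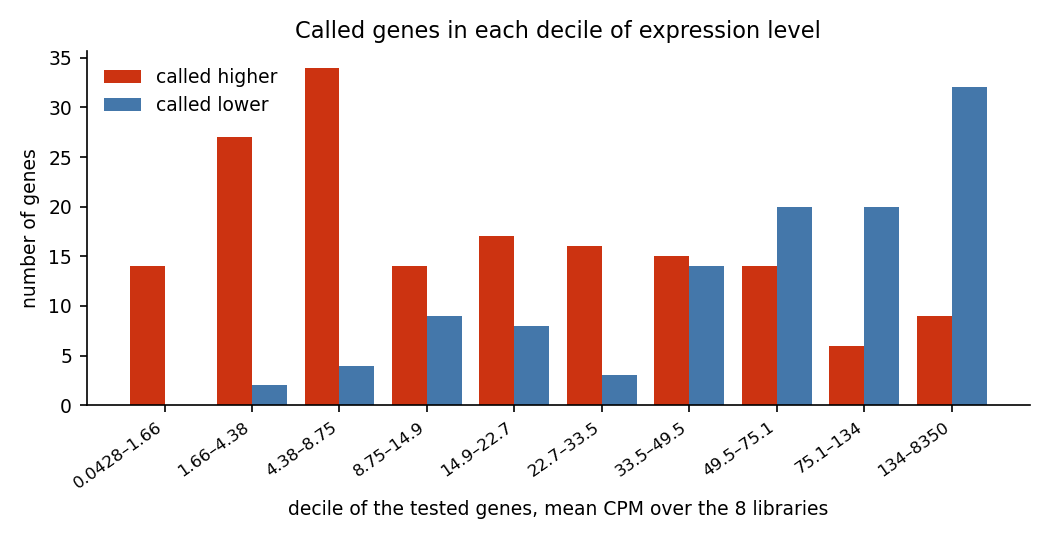
Bars give the number of genes called higher (red) and lower (blue) in each decile of the tested genes, ordered by mean CPM over the 8 libraries (range on the horizontal axis). Higher genes peak at 34 in the third decile and lower genes at 32 in the top decile.

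How firmly a call stood varied widely. With 1 of the 12 libraries left out at a time, 36 higher genes and 12 lower genes were called in each of these 12 fits, 17 and 12 of them outside the known lists. Of these, 33 higher and 12 lower genes were also called under all 10 other tests, scalings and filters that were tried. The number of higher genes was 72, 56 and 36 without vehicle 1, 2 or 4, 61, 96, 69 and 93 without oxaliplatin 1, 2, 3 or 4, and 95 and 91 without paclitaxel 2 or 3. It rose from 166 to 182 without vehicle 3, and to 173 and 198 without paclitaxel 1 or 4. The number of lower genes was 26, 28, 60 and 13 without vehicle 1, 2, 3 or 4, 31, 59, 36 and 75 without oxaliplatin 1, 2, 3 or 4, and 43 and 54 without paclitaxel 2 or 3. It was 113 and 159 without paclitaxel 1 or 4, against 112 with all libraries. Beside a gene below, "kept" gives the number of these 12 fits in which it was still called. A gene whose estimated counts were not whole in more than 6 libraries, as happens when reads are divided between similar genes, is called uncertain; this holds for 42 higher and 20 lower genes and for 4888 of all tested genes.

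Alox15 (gene ID 81639), a lipoxygenase that adds oxygen to arachidonic and other polyunsaturated fatty acids, stood out by size. In vehicle it was at 4.50, 5.38, 6.23 and 8.38 CPM, and after oxaliplatin at 142, 146, 148 and 70.5 CPM. The groups were far apart, with oxaliplatin 4 well below the other 3. Its mean rose 20.7-fold (log2 fold change 4.37 ± 0.34 SE, adjusted p = 0.000265, edgeR, kept in 12) and was 4.25 CPM after paclitaxel. Of 24 tested enzymes of eicosanoid and oxylipin synthesis, 2 were called higher, Alox15 and Ephx1, an epoxide hydrolase that is also on the p53 list; Ephx1 went from 41.8 ± 3.70 to 80.4 ± 7.33 CPM (SD, n = 4) and is uncertain. The list had a median of 0.18 (0.079 without oxaliplatin 1) with 15 of 24 members above 0, and its score was 0.40, 0.43, 0.43 and 0.11 in oxaliplatin 1 to 4. A score is the mean log2 CPM of a list's tested members in a library minus its mean over the vehicle libraries.

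Several other genes outside the known lists rose and were kept in all 12 fits. Ifrd1 (29596), a transcriptional co-regulator induced by stress and growth signals, was at 19.9, 21.2, 17.1 and 16.3 CPM in vehicle and 42.0, 43.9, 34.0 and 40.7 CPM after oxaliplatin. No oxaliplatin library came near the vehicle range, and the rise was 2.16-fold (1.11 ± 0.13, adjusted p = 0.000674, edgeR). Gpnmb (113955), a membrane glycoprotein of lysosomes in macrophages and other cells, was at 8.32, 9.46, 11.2 and 6.54 CPM in vehicle and 21.5, 22.3, 20.0 and 24.5 CPM after oxaliplatin. It was even over the oxaliplatin libraries and rose 2.48-fold (1.31 ± 0.17, adjusted p = 0.00204). Rbm38 (366262), an RNA-binding protein and itself a known p53 target that was not on the list used, went from 11.3, 10.6, 13 and 12.8 CPM to 30.2, 23.6, 36.1 and 20.2 CPM. Oxaliplatin 1 and 3 were the high libraries, and the rise was 2.30-fold (1.20 ± 0.19, adjusted p = 0.0072). Ecel1 (60417), a membrane endopeptidase induced in injured neurons, was at 2.08, 2.98, 4.40 and 2.47 CPM in vehicle and 14.6, 6.54, 13.3 and 17.6 CPM after oxaliplatin, with oxaliplatin 2 the lowest of the treated libraries. Abcb1b, the rodent P-glycoprotein pump that expels many drugs, was at 0.346, 0.526, 0.572 and 0.287 CPM and then at 2.31, 5.17, 3.67 and 5.56 CPM. It was the 1 called member of 23 tested genes of drug efflux and platinum transport (median -0.0095), and it is uncertain; Abcb1a is a close copy of it.

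**Figure D3:**
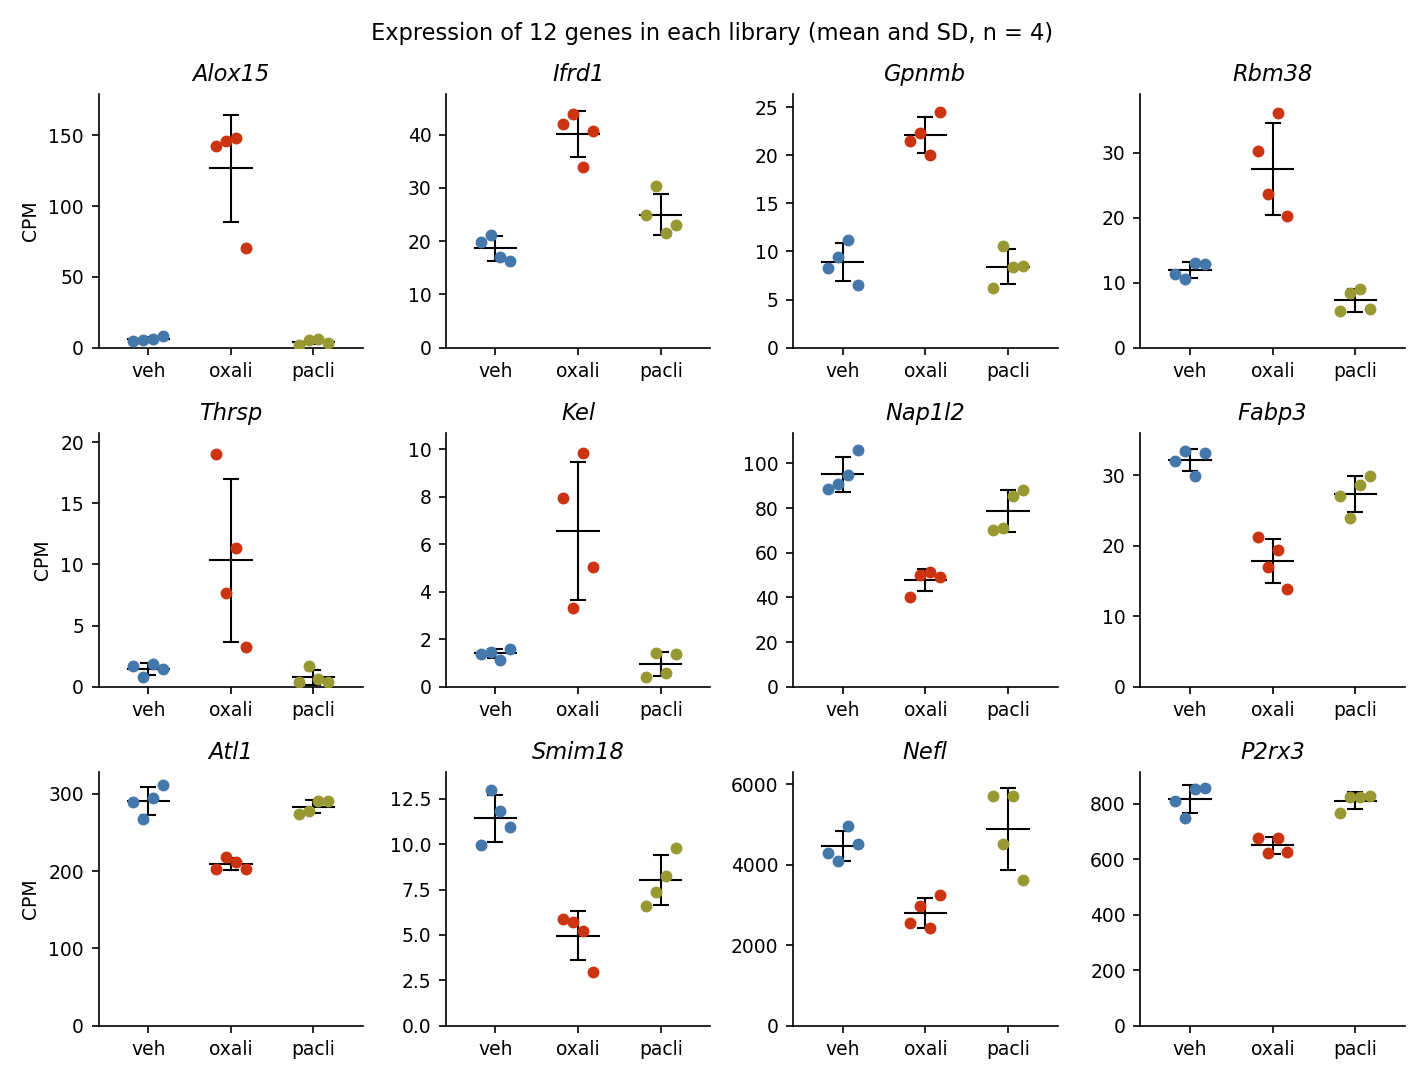
Points are CPM in single libraries of vehicle (veh), oxaliplatin (oxali) and paclitaxel (pacli), with bars for the mean and SD (n = 4), each panel on its own axis from 0. In all 12 genes the oxaliplatin libraries lie clear of the vehicle libraries, which the rule for naming genes largely required. Spread is wide in Thrsp and Kel and narrow in Atl1 and P2rx3.

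Among the named higher genes were regulators of the actin skeleton and of adhesion, given singly because they were not gathered in a list of their own. Arhgap11a, a GTPase-activating protein of dividing cells, rose from 4.91, 4.79, 5.20 and 5.28 CPM to 9.64, 9.07, 8.58 and 8.93 CPM (0.84 ± 0.12, adjusted p = 0.00475, edgeR, kept in 12), a narrow spread in both groups. Inf2, a formin that builds and severs actin filaments, rose from 127, 111, 116 and 105 CPM to 179, 153, 173 and 174 CPM (0.57 ± 0.09, adjusted p = 0.00603, kept in 12). Smaller rises were seen in Smtn, smoothelin of contractile smooth muscle (1.54-fold), Fhod1, a formin (1.54-fold), Myo1c, a membrane-linked myosin (1.35-fold), and Tln1, talin that ties integrins to actin (1.30-fold). Smtn, Fhod1 and Tln1 are uncertain, and Tln1 was kept in only 4 fits. Itgb4 (25724), the integrin beta 4 chain found on Schwann cells and other cells that rest on a basement membrane, was at 647, 532, 586 and 452 CPM in vehicle and 820, 709, 789 and 729 CPM after oxaliplatin (0.46 ± 0.10, adjusted p = 0.0424, kept in 3), the highest counts among the named genes that rose. Other genes named by the rule were Rhbdf2, an inactive rhomboid that guides the sheddase ADAM17 (1.59-fold, uncertain), Slc6a6, the taurine transporter (1.59-fold, uncertain), Exoc3l2, a relative of an exocyst subunit (2.03-fold), and Ccnf, cyclin F (2.06-fold). Of 38 kinesins, microtubule motors of transport and of the mitotic spindle, 5 were called higher and 0 lower (median 0.24). Over all tested genes 1.05% were called higher. The called kinesins are Kif11, Kif18b, Kif2c, Kif4a and Kifc1, all motors of the mitotic spindle or of chromosomes. Their count therefore belongs to the known cell cycle theme. Kif18b is on the cell cycle list used here, and Kifc1 is not.

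Promoters are shown for Ifrd1, Gpnmb, Nap1l2 and Hebp2, as context for single-gene responses. Of the genes outside the known lists that were named for a small p, they are the first 2 of each direction with an entry in RefSeq's promoter table (assembly GRCr8). Alox15 had no entry. Each is the 250 bases before the gene's start, for Ifrd1 (chr6:63016066-63016315, minus strand) and Gpnmb (chr4:79340878-79341127, plus strand), which rose, and of Nap1l2 (chrX:72242248-72242497, minus strand) and Hebp2 (chr1:15021524-15021773, minus strand), which fell. All are written 5′ to 3′ with GC boxes (GGGCGG or its reverse complement) in capitals. Ifrd1 and Nap1l2 held GC boxes, and no other searched motif was found in these 4 windows.
Ifrd1: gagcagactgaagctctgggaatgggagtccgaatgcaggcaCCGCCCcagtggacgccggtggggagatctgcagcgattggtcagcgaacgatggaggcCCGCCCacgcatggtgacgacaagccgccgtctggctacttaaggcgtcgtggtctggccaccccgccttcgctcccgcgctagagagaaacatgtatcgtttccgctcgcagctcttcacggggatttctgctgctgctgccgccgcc
Gpnmb: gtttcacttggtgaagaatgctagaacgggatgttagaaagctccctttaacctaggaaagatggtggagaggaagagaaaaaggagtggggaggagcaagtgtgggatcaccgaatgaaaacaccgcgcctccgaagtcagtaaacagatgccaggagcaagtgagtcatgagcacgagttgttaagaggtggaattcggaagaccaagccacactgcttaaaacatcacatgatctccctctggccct
Nap1l2: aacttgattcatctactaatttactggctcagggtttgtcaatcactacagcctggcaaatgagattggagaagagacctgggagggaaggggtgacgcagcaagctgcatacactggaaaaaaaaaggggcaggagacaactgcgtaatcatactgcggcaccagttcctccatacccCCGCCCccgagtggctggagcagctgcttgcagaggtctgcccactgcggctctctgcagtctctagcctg
Hebp2: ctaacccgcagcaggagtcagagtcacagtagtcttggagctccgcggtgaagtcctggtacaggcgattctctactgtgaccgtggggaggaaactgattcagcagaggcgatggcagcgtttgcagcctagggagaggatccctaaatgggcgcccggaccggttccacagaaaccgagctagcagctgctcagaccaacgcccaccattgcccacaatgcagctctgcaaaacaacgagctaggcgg

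A promoter was found for 11301 of the tested genes, among them 189 of those called, and motifs were searched on both strands of 300 bases (250 before the start and 50 after it). The CCAAT box (CCAATCA) was held by 19.0% of 116 promoters of higher genes, 12.3% of 73 of lower genes and 9.17% of all 11301. Outside the known lists the share among higher genes was 15.4% of 78. TTTGAA, the cell cycle homology region of mitotic genes, was held by 20.7% of all higher genes, by 10.3% of those outside the known lists, by 6.85% of lower genes and by 11.9% of all. GC boxes were held by 66.4%, 57.5% and 59.8% of higher, lower and all promoters. E boxes (CACGTG) stood at 11.2%, 15.1% and 9.09%, and the cyclic AMP element TGACGTCA at 5.17%, 1.37% and 3.02%. The D box of clock-controlled genes (TTATGTAA or TTACGTAA) was in 1 promoter of each called direction, Per2 and Ano4, and in 0.646% of all; the TATA box (TATAAAA) was in 2 promoters of each direction, Baiap2 and Nusap1 among higher and Eif4a2 and Kitlg among lower genes, and in 2.73% of all. These shares describe letters in a window and were not tested.

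Matrix and vessel markers lay above 0 for the most part, with a few called higher. Of 29 tested fibroblast and matrix markers 3 were called higher, 0 lower, and 27 lay above 0 (median 0.35, against 0.0094 for all genes). Fn1, fibronectin, was at 159, 112, 193 and 131 CPM in vehicle and 224, 274, 234 and 232 CPM after oxaliplatin (0.70 ± 0.15, adjusted p = 0.0336, edgeR, kept in 3). Col6a1 and Col6a2, chains of collagen VI, rose from 126 ± 24.1 to 187 ± 21.4 CPM and from 164 ± 25.9 to 246 ± 44.3 CPM (kept in 4 and 3). No library of either collagen overlapped, although the lowest oxaliplatin value of Col6a2, 190 CPM in oxaliplatin 4, lay just above the highest vehicle value of 186. Mmp2, the gelatinase that cuts collagen IV, was at 104, 112, 127 and 92.7 CPM in vehicle and 194, 174, 152 and 153 CPM after oxaliplatin (0.63 ± 0.11, adjusted p = 0.0186, kept in 9). Of the 44 collagen genes 35 lay above 0 (median 0.28) and only the 2 collagen VI chains were called. Eng, endoglin of endothelium, rose 1.60-fold (0.68 ± 0.15, adjusted p = 0.0413, kept in 4) as the 1 called member of 26 endothelial markers (21 above 0, median 0.32). All 18 pericyte and smooth muscle markers lay above 0 (median 0.26), with Smtn called.

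These marker lists varied between vehicle libraries as well. The fibroblast score was 0.52, 0.47, 0.30 and 0.22 in oxaliplatin 1 to 4 but 0.35 in vehicle 3, and -0.22 to 0.02 in the other 3 vehicle libraries. The endothelial score was 0.36, 0.36, 0.34 and 0.18 after oxaliplatin and 0.33 in vehicle 3, against -0.28 to 0.09 in the rest. So the library vehicle 3 lay within the oxaliplatin range for both lists, and the groups of list scores overlapped. In whole ganglia, more cells of a type and more RNA per cell cannot be told apart. Myelin and Schwann cell markers (24 tested, 0 called, median 0.12) and satellite glia markers (18 tested, 0 called, median -0.03) had no called member. The median of the first of these lists was 0.00047 without oxaliplatin 2 and 0.26 without vehicle 2, and that of the second -0.15 without oxaliplatin 3 and 0.04 without oxaliplatin 4.

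A few markers of red cell precursors and fat cells rose after oxaliplatin and no B-cell marker was called, with values uneven over the libraries. Of 22 erythroid markers 21 lay above 0 (median 1.28), with 2 called higher and 1 lower. Kel (297025), the Kell blood group protein, was at 1.39, 1.46, 1.14 and 1.61 CPM in vehicle and 7.96, 3.33, 9.82 and 5.05 CPM after oxaliplatin (2.22 ± 0.37, adjusted p = 0.0115, edgeR, kept in 12), and Rhd, the Rh blood group protein, rose 2.41-fold (adjusted p = 0.0441, kept in 4). Oxaliplatin 1 and 3 were the highest for both genes. Alas2, the erythroid enzyme of heme synthesis, went from 21.7, 28.3, 30.3 and 36.4 CPM to 126, 68.4, 149 and 47.7 CPM without passing (adjusted p = 0.0603), and Slc4a1, the anion exchanger of red cells, had 1.51 ± 0.43 (adjusted p = 0.107). The alpha globin gene Hba1, picked out after its values were seen, was at 933, 1627, 1648 and 1622 CPM in vehicle and 6671, 2792, 6809 and 2042 CPM after oxaliplatin (adjusted p = 0.072, uncertain). The member that fell was Tfrc, the transferrin receptor, which many cell types use to take up iron: it went from 157, 141, 149 and 166 CPM to 87.5, 113, 115 and 95.0 CPM (-0.58 ± 0.11, adjusted p = 0.0246, kept in 8).

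B and plasma cell markers had a similar median (1.27, 16 of 18 above 0) but 0 were called. Cd79a, a chain of the B-cell receptor, was at 4.16, 4.56, 5.83 and 3.50 CPM in vehicle and 26.6, 5.17, 22.6 and 7.24 CPM after oxaliplatin (adjusted p = 0.0869, edgeR). Bank1, a B-cell scaffold protein, had 1.33 ± 0.40 (adjusted p = 0.111). The B-cell score was 1.37, -0.08, 1.41 and 0.35 in oxaliplatin 1 to 4, so oxaliplatin 2 lay within the vehicle range of -0.17 to 0.20. The erythroid score was 1.22, 0.47, 1.48 and 0.43, all above the vehicle libraries (-0.25 to 0.16), and it too was highest in oxaliplatin 1 and 3. Other blood cell lists had no called gene: 23 neutrophil markers had a median of -0.37, with scores of 0.42, -1.26, -0.07 and -0.68 in oxaliplatin 1 to 4, 11 MHC class II genes -0.37, 9 markers of mast cells, basophils and eosinophils -0.60, 9 platelet markers 0.21, 9 T and NK cell markers -0.14 and 25 macrophage markers -0.07. These medians moved when single libraries were left out. Without oxaliplatin 2 they were -0.14 for neutrophils, -0.22 for MHC class II and -0.29 for mast cells, and without vehicle 1 the platelet median was 0.08. The T and NK cell median was 0.17 without oxaliplatin 4, the macrophage median 0.07 without vehicle 2, and the neutrophil median -0.84 without oxaliplatin 1. Within the macrophage list, Cd68, a lysosomal glycoprotein, had 0.48 ± 0.14 (adjusted p = 0.098) and Adgre1, a surface receptor, -0.81 ± 0.21 (adjusted p = 0.0744), in opposite directions.

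A few genes of fat cells and of fat synthesis rose after oxaliplatin, among them 3 of 18 adipocyte markers. Thrsp (25357), a regulator of fatty acid synthesis in fat and liver, was at 1.68, 0.759, 1.83 and 1.43 CPM in vehicle and 19.0, 7.63, 11.3 and 3.26 CPM after oxaliplatin (2.85 ± 0.54, adjusted p = 0.0264, edgeR, kept in 7). Adipoq (246253), the fat cell hormone adiponectin, was at 1.62, 1.11, 2.23 and 1.89 CPM in vehicle and 16.3, 8.09, 9.09 and 3.54 CPM after oxaliplatin (2.43 ± 0.55, adjusted p = 0.049, kept in 3). In both, oxaliplatin 1 was highest and oxaliplatin 4 lowest, yet still above every vehicle library. Fabp4, a fatty acid binding protein of fat cells, and Cidec, a lipid droplet protein, rose 3.90-fold and 4.43-fold (kept in 5 each). Of the 18 adipocyte markers 14 lay above 0, and the median was 0.37. The adipocyte score was 1.06, 0.59, 0.73 and 0.31, in the order oxaliplatin 1 to 4, and -0.11 to 0.18 in vehicle. The defining markers stayed low in absolute terms, with Adipoq at 1.17 FPKM in vehicle and 6.39 after oxaliplatin. In the list of fatty acid and triglyceride synthesis Thrsp and Dgat2, which makes triglycerides, rose (Dgat2 1.37-fold, kept in 3), while Acss2, which makes cytosolic acetyl-CoA from acetate, fell 1.22-fold (adjusted p = 0.032, kept in 3), and the median over 25 members was -0.08.

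**Figure D4:**
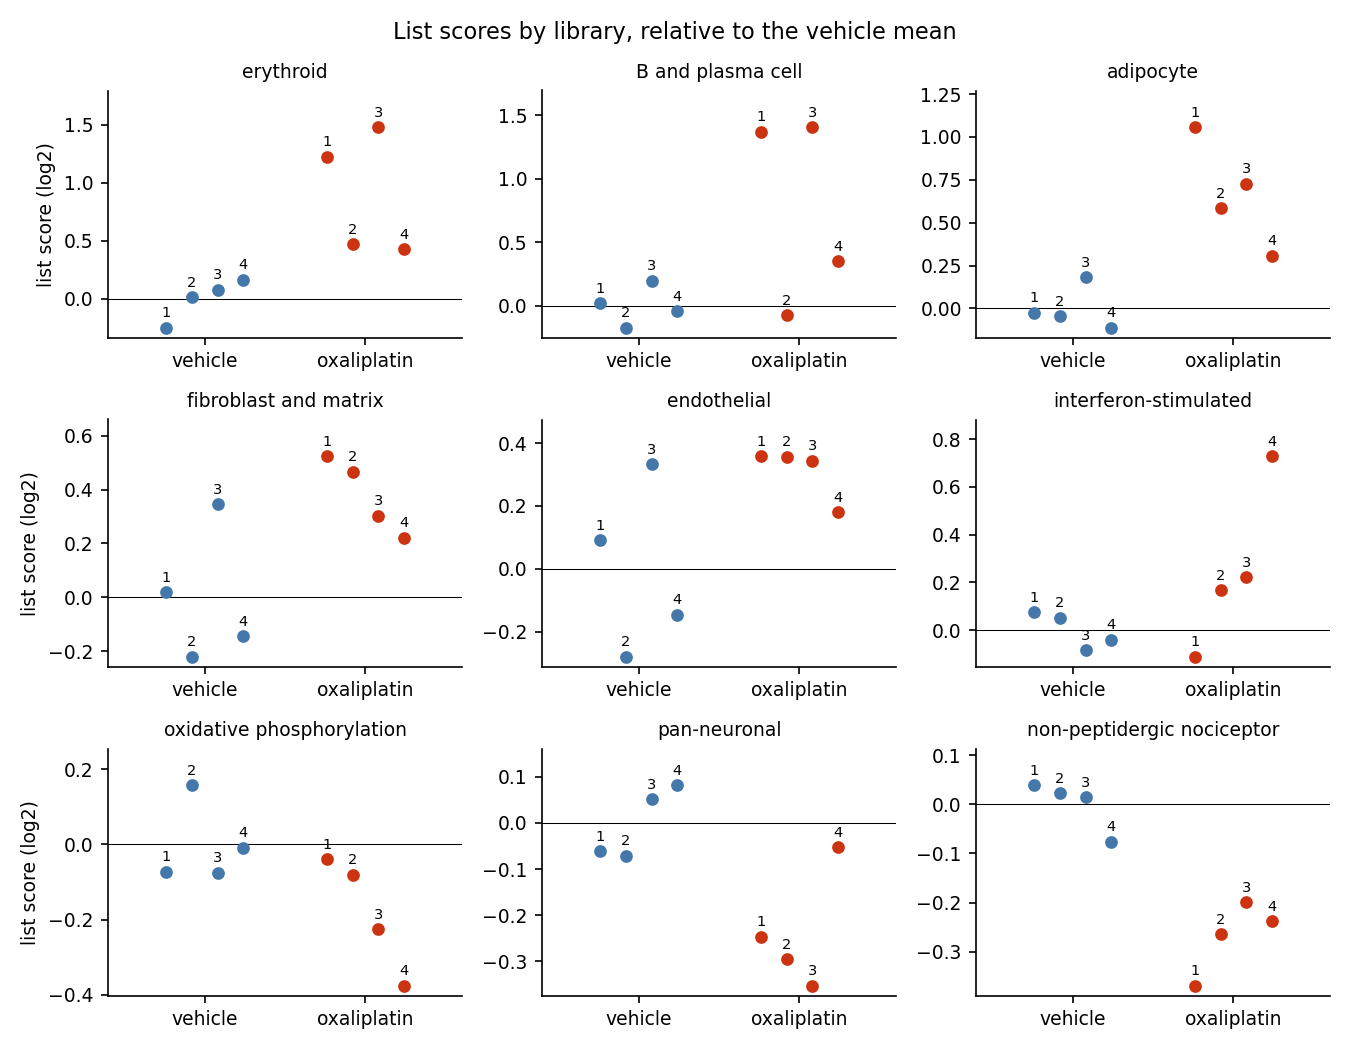
Points are the scores of 9 gene lists in single libraries, numbered by replicate (vertical axis, mean log2 CPM of the members minus the vehicle mean). Erythroid and adipocyte scores of all oxaliplatin libraries lie above vehicle, the interferon score is 0.73 in oxaliplatin 4 against 0.22 or less elsewhere, and fibroblast and endothelial scores of vehicle 3 fall among those of oxaliplatin.

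Interferon-stimulated genes, the antiviral set induced by type I interferon, lay above 0 in 36 of 40 members (median 0.29), but 1 was called higher and 1 lower. Isg20, an exonuclease that degrades viral RNA, rose from 1.39, 1.52, 0.972 and 1.09 CPM to 3.29, 2.53, 2.54 and 4.44 CPM (1.36 ± 0.25, adjusted p = 0.0191, edgeR, kept in 10). Ifi27l2b (299269), of the interferon alpha-inducible family, fell from 136, 155, 136 and 136 CPM to 98.6, 106, 89.5 and 89.8 CPM (-0.55 ± 0.08, adjusted p = 0.00369, kept in 12). The list's score was 0.73 in oxaliplatin 4, whereas the other oxaliplatin libraries had -0.11, 0.17 and 0.22 and vehicle -0.08 to 0.07. Without oxaliplatin 4 the median of the list was 0.056. C4a, a complement component, rose from 30.4 ± 10.3 to 65.0 ± 14.9 CPM (1.10 ± 0.21, adjusted p = 0.0229, uncertain, kept in 7) as the 1 called of 24 complement genes (median 0.04). Csf1, the growth factor of macrophages, rose 1.42-fold (adjusted p = 0.0345, kept in 4), while Ccl2, a chemokine that draws monocytes, had -0.52 ± 0.21 (adjusted p = 0.227).

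Among the lower genes, Nap1l2 (317247), a histone chaperone of neurons that has no introns and lies on the X chromosome, led by p. It was at 88.5, 90.8, 94.9 and 106 CPM in vehicle and 40.3, 50.2, 51.2 and 49.1 CPM after oxaliplatin, with no oxaliplatin library near the vehicle range. The fall was 1.99-fold (-0.99 ± 0.10, adjusted p = 0.000385, edgeR, kept in 12), and the paclitaxel mean lay between at 78.6 CPM. Its relative Nap1l5 (688843) fell from 253, 264, 279 and 291 CPM to 186, 208, 196 and 193 CPM (-0.47 ± 0.08, adjusted p = 0.0094, kept in 12). They were the 2 called of 10 tested nucleosome assembly genes (median -0.12).

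Smim18 (100909793), a small membrane protein, had the largest fall of the lower genes kept in all 12 fits, from 9.93, 13, 11.8 and 11 CPM to 5.89, 5.74, 5.19 and 2.98 CPM (-1.21 ± 0.19, adjusted p = 0.00959, edgeR). Slitrk4, a synaptic adhesion protein, fell from 23.2, 18.6, 22.5 and 22.9 CPM to 9.93, 13.3, 14.3 and 13.9 CPM (-0.76 ± 0.12, adjusted p = 0.00959). The groups were apart in both, by a wide margin in Smim18 except for vehicle 1. Atl1 (362750), the atlastin that shapes the endoplasmic reticulum of axons and whose human gene is mutated in hereditary spastic paraplegia, fell from 289, 268, 294 and 311 CPM to 203, 218, 212 and 203 CPM (-0.47 ± 0.07, adjusted p = 0.00458). Hebp2, a heme-binding protein, fell 1.41-fold, Mrap2, an accessory protein of melanocortin receptors, 1.42-fold, and Nkiras1, a Ras-like inhibitor of NF-kappaB signalling, 1.48-fold. Ccdc126 fell 1.55-fold and Tsc22d3, the glucocorticoid-induced leucine zipper protein, 1.41-fold. These were also kept in all 12 fits. Tmem230, a membrane protein of vesicle traffic (1.32-fold), Clcn4, a chloride-proton exchanger of endosomes (1.41-fold, uncertain), and Polr3g, a subunit of RNA polymerase III (1.39-fold, uncertain), were kept in 11. Csmd3 and B3galt5, a galactosyltransferase, fell 2.00-fold and 1.93-fold from low levels of 3.36 and 8.28 CPM.

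Neurofilament genes, which build the axon's skeleton, were among the called genes with the highest counts, and they fell. Nefl (83613), the neurofilament light chain, was at 4300, 4080, 4946 and 4514 CPM in vehicle and 2550, 2983, 2424 and 3244 CPM after oxaliplatin (-0.67 ± 0.14, adjusted p = 0.0359, edgeR, kept in 4). Nefm, the medium chain, fell from 4026, 3920, 4800 and 4441 CPM to 2811, 2776, 2222 and 3265 CPM (-0.63 ± 0.15, adjusted p = 0.049, kept in 2). Nefh, the heavy chain, went from 2724, 2603, 3366 and 2909 CPM to 1785, 1715, 1325 and 2131 CPM (-0.74 ± 0.19) and did not overlap, but it missed the threshold (adjusted p = 0.066). In all 3 chains oxaliplatin 3 was lowest and oxaliplatin 4 highest of the treated libraries. Zwint, a kinetochore protein that neurons also use near synapses, fell from 1680 ± 49.4 to 1314 ± 43.2 CPM, and Tppp3, a tubulin polymerisation protein, from 1176 ± 118 to 860 ± 68.0 CPM (kept in 3 each).

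Of 20 pan-neuronal markers 2 were called lower, Nefl and Nefm, and 1 lay above 0 (median -0.18). The list score was -0.25, -0.30, -0.35 and -0.05 in oxaliplatin 1 to 4, and oxaliplatin 4 lay within the vehicle range of -0.07 to 0.08. Prph, Rbfox3 and Isl1, given at the start as sensory neuron markers beside Nefh, were not called. They had -0.09 ± 0.13, 0.04 ± 0.14 and -0.29 ± 0.13 (adjusted p = 0.766, 0.911 and 0.291, edgeR). Of 19 markers of non-peptidergic nociceptors, small pain-sensing neurons, 17 lay below 0 (median -0.23) and P2rx3, their ATP-gated channel, fell from 809, 748, 855 and 858 CPM to 675, 624, 678 and 626 CPM (-0.33 ± 0.07, adjusted p = 0.0413, edgeR, kept in 2). This score was -0.37, -0.26, -0.20 and -0.24 after oxaliplatin and -0.08 to 0.04 in vehicle, with no overlap. Of 70 potassium channel genes 2 fell, Kcnv1, a silent subunit (1.44-fold, kept in 8), and Kcnip1, a channel-interacting protein (1.27-fold, kept in 9), and 1 rose: Kcnk3, a leak channel, from 8.38, 9.05, 10.4 and 9.35 CPM to 17.9, 15.8, 15.1 and 28.2 CPM (1.05 ± 0.19, adjusted p = 0.0205, kept in 9). Scn1a, a sodium channel of large fibres, fell 1.45-fold (uncertain, kept in 3), with oxaliplatin 4 (110 CPM) just under the lowest vehicle library (112 CPM). Piezo1, a mechanically gated channel, rose 1.58-fold (uncertain, kept in 5). The summed level of the fibroblast markers was 4540 to 6592 CPM in vehicle and 6243 to 7520 CPM after oxaliplatin, that of the erythroid markers 2598 to 4703 and 5260 to 17326 CPM, and that of the pan-neuronal markers 24746 to 28344 and 17795 to 22959 CPM. The pan-neuronal sum is weighted towards abundant members such as the neurofilament genes. Nefl alone went from a mean of 4460 to 2800 CPM. The score of this list, which weighs its members equally, overlapped between the groups. The summed B-cell markers (291 to 320 and 278 to 420 CPM) and adipocyte markers (896 to 987 and 874 to 1025 CPM) overlapped between the groups. The part of other cell types in the lower neuronal values was not tested.

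Genes used widely as signs of nerve injury and pain did not pass in this comparison. Atf3, an injury-induced transcription factor, had a log2 fold change of 0.15 ± 0.15 (adjusted p = 0.677, edgeR, uncertain), Gal, galanin, -0.35 ± 0.23 (0.477), Calca, the precursor of CGRP, 0.07 ± 0.11 (0.808, uncertain), Trpv1, the capsaicin receptor, -0.06 ± 0.11 (0.837), and Trpa1, the irritant receptor, -0.21 ± 0.14 (0.468). The sodium channels Scn9a and Scn10a, both uncertain, had -0.27 ± 0.12 (0.263) and -0.01 ± 0.12 (0.972). The axon injury list of 27 genes had Ecel1 and Csf1 higher, and Plaur, the urokinase receptor, and Gadd45a, a growth arrest gene that is also on the p53 list, lower (median -0.10). Plaur went from 21.9, 24.0, 25.2 and 28.7 CPM to 13.6, 18.7, 13.7 and 16 CPM (-0.69 ± 0.12, adjusted p = 0.0117, kept in 11), so all treated libraries lay below the vehicle libraries.

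Genes of mitochondrial energy supply leaned lower by small amounts. Over all tested genes 0.708% were called lower, and the median log2 fold change in the top expression decile was -0.07. Of 75 nuclear genes of oxidative phosphorylation 70 lay below 0 (median -0.17) and 2 were called: Uqcrfs1, the Rieske protein of complex III, which fell 1.24-fold from 107 ± 4.08 to 86.1 ± 4.01 CPM (adjusted p = 0.0299, edgeR), and Ndufs1, the largest subunit of complex I, which fell 1.29-fold (0.0353), both kept in 4. Pdhb, a subunit of pyruvate dehydrogenase, fell 1.25-fold as the 1 called of 18 citric acid cycle genes (median -0.12), and Slc25a4, the carrier that swaps ADP for ATP, fell from 959, 964, 949 and 980 CPM to 806, 780, 765 and 755 CPM (kept in 2). Fabp3 (79131), which carries fatty acids in the cytosol, fell further, from 31.9, 33.4, 29.9 and 33.1 CPM to 21.2, 17, 19.3 and 13.9 CPM (-0.85 ± 0.12, adjusted p = 0.00377, kept in 12). The oxidative phosphorylation score was -0.04, -0.08, -0.23 and -0.38 in oxaliplatin 1 to 4 against -0.08 to 0.16 in vehicle, so oxaliplatin 1 lay within the vehicle range and oxaliplatin 2 at its lower edge. Cholesterol synthesis and uptake showed 24 of 25 genes below 0 (median -0.27), with Acat2, which joins 2 acetyl-CoA molecules (1.30-fold, uncertain, kept in 7), and Sqle, squalene epoxidase (1.26-fold, kept in 1), called. The score of this list was -0.22, -0.13, -0.23 and -0.39 and lay below all vehicle libraries (-0.08 to 0.05).

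Genes of protein quality control also moved by small amounts. Heat shock (28 of 34 below 0) and proteasome genes (28 of 31) leaned lower about as far as those of oxidative phosphorylation. Of 34 cytosolic heat shock genes 2 were called lower, Hsph1, a large chaperone (1.36-fold, kept in 2), and Dnajb4, a co-chaperone (1.27-fold, kept in 3), with a median of -0.15. Of 31 proteasome genes Psma5, a subunit of the core, fell 1.30-fold (kept in 1; median -0.15), and of 36 lysosome and autophagy genes Atp6v1h, a subunit of the proton pump, fell 1.23-fold (median -0.07). Ddit3 (29467), the stress transcription factor CHOP, was the 1 called member of 30 integrated stress response genes (median 0.02), going from 27.4, 33.3, 36.0 and 32.1 CPM to 73.9, 48.2, 47.8 and 59.9 CPM (0.83 ± 0.15, adjusted p = 0.0186, edgeR, uncertain, kept in 10). Bnip3, a mitophagy receptor induced by low oxygen, fell 1.53-fold (kept in 7) as the 1 called of 22 hypoxia genes. Mt2A, a metallothionein that binds metals, rose 2.00-fold from 1.51 ± 0.365 CPM (uncertain, kept in 2), the 1 called of 35 genes of the NRF2 and glutathione list (median -0.02), and Por, which passes electrons to cytochrome P450 enzymes, rose 1.29-fold (kept in 6).

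Lists of growth factor signals had at most 1 called member in each direction. In the neuregulin axis, by which axons signal to Schwann cells, Nrg1, the ligand, fell from 123, 107, 115 and 123 CPM to 85.8, 87.6, 78.7 and 98.1 CPM, and Erbb2, the co-receptor, rose from 27.4, 24.6, 23.9 and 22.6 CPM to 32.5, 33.0, 36.0 and 33.5 CPM. Both are uncertain and were kept in 2 and 3 fits (adjusted p = 0.049 and 0.0363, edgeR). Bmp7, a bone morphogenetic protein, rose 2.13-fold (kept in 4), but oxaliplatin 4 (5.84 CPM) lay under vehicle 3 (5.95 CPM). Fzd2, a Wnt receptor, rose 1.52-fold (uncertain, kept in 3) as the 1 called of 40 Wnt genes, and Pik3r1, the regulatory subunit of PI3 kinase that acts in insulin signalling, fell 1.42-fold (uncertain, kept in 8). Each of these lists had a median between -0.04 and 0.16. Of 37 nuclear receptors 3 were called higher, Rarg, a retinoic acid receptor (1.38-fold, kept in 3), and the clock genes Nr1d1 and Nr1d2.

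**Figure D5:**
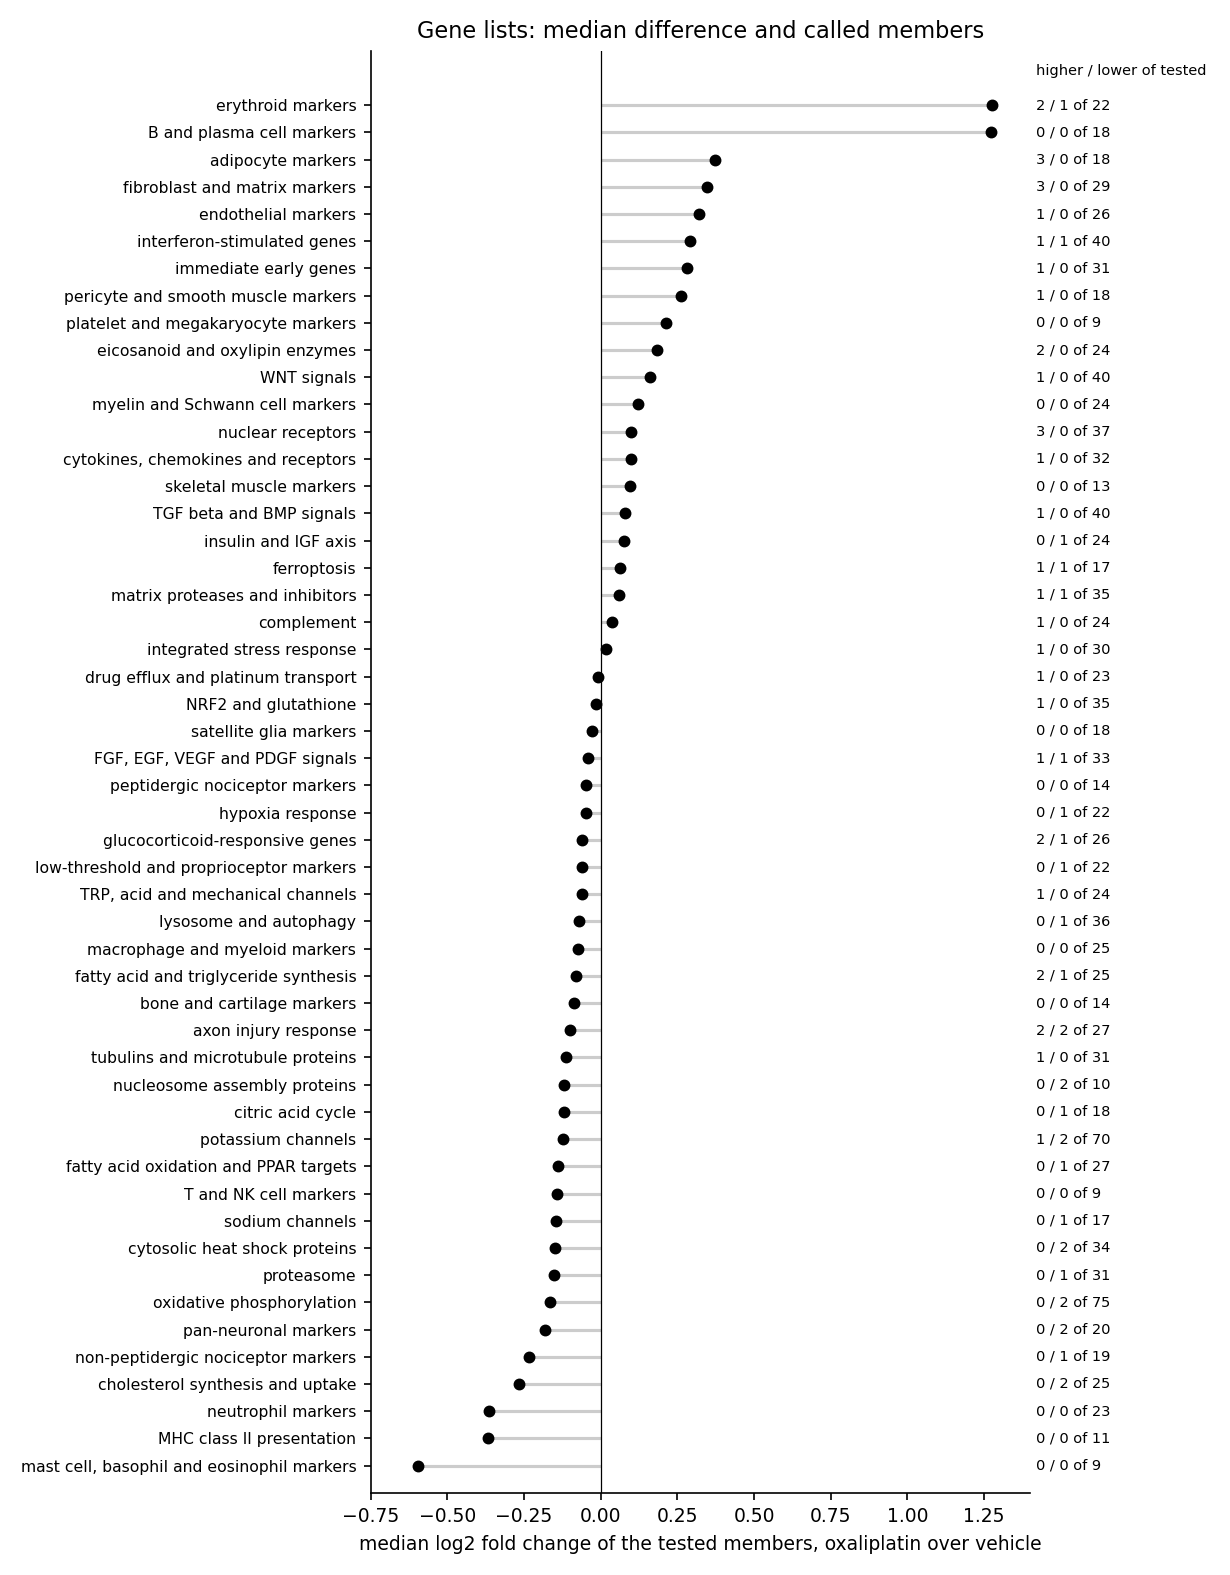
Points are the median log2 fold change of the tested members of each list (horizontal), with the numbers called higher and lower and the number tested at the right. The erythroid (1.28) and B-cell (1.27) lists lie far to the right. The erythroid list has 2 members called higher and 1 lower, and the B-cell list has 0 called. Cholesterol synthesis (-0.27), non-peptidergic nociceptor (-0.23) and pan-neuronal (-0.18) lists lie to the left of 0 with 5 called members between them, all lower.

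Further lists had few or no called genes. Immediate early genes, which respond within minutes to activity or stress, lay above 0 in 27 of 31 members (median 0.28), with Ifrd1 as the 1 called member. This median was 0.17 without vehicle 4 and 0.42 without vehicle 3, and the score of vehicle 3 (0.22) was above that of oxaliplatin 3 (0.15). Genes for the repair of platinum adducts lay above 0 in 33 of 45 (median 0.18, 0 called). Tubulins and other microtubule proteins lay below 0 in 23 of 31 (median -0.11), yet the 1 called member, Tubb6, a beta tubulin, rose from 20.7, 19.0, 24.4 and 22.8 CPM to 34.3, 40.0, 28.7 and 30.9 CPM (0.62 ± 0.12, adjusted p = 0.0231, edgeR, uncertain, kept in 7). Genes of synaptic vesicles (29 of 39 below 0, median -0.14), motors and adaptors of axonal transport (23 of 31 below 0, median -0.11) and the GTPases named Rab (46 of 63 below 0, median -0.07) had 0 called members. Cytosolic ribosomal proteins were spread evenly about 0 (34 of 72 above, median -0.01), as were genes of endoplasmic reticulum stress (10 of 22 above, median -0.0021), again with 0 called. Of the glucocorticoid-responsive genes, Cdkn1a, the p53-induced cell cycle inhibitor, and Mt2A rose and Tsc22d3 fell, so the 3 called of 26 members did not share a direction. Among forkhead factors, a family of DNA-binding proteins, 19 of 23 lay above 0 (median 0.22), and Foxp4 was called higher (0.54 ± 0.11, adjusted p = 0.0293, uncertain, kept in 7).

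Slfn14, a ribosome-associated endoribonuclease of blood cell precursors, had 0, 0, 0 and 0.0574 CPM in vehicle and 2.14, 1.67, 2.37 and 1.57 CPM after oxaliplatin, so it was nearly silent in vehicle; it is uncertain and was picked out after its values were seen. Outside the called genes, 14 with a mean over 10 CPM had a log2 fold change over 1.4 in size without passing. Several of them were red cell genes, namely Hba2, Hba1, Hbb, Hbb-b1, Alas2 and Slc4a1, each highest in oxaliplatin 1 and 3. LOC108351097, another of the 14, was at 1.03 to 3.93 CPM in vehicle. It was at 110, 2.01, 1.81 and 133 CPM in oxaliplatin 1 to 4, so 2 of the treated libraries were high (adjusted p = 0.139, edgeR, uncertain).

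In the direct test against paclitaxel, which shares the oxaliplatin libraries with the comparison above, 1788 of 15809 genes differed (11.3%; 1044 higher after oxaliplatin and 744 lower). That count rested on single libraries: it was 810, 679, 601 and 3463 without paclitaxel 1, 2, 3 or 4, and 901 and 571 without oxaliplatin 2 or 3. Paclitaxel against vehicle gave 13 higher and 6 lower genes. Alox15 was 4.89 ± 0.36 higher on the log2 scale after oxaliplatin than after paclitaxel (adjusted p = 0.000119, edgeR), Rbm38 1.92 ± 0.19 higher (0.000266), Gpnmb 1.39 ± 0.17 higher (0.000939) and Mmp2 1.10 ± 0.12 higher (0.000305). These gaps hold the change with paclitaxel as well. Against vehicle, paclitaxel had -0.52 ± 0.37, -0.72 ± 0.19, -0.08 ± 0.17 and -0.48 ± 0.11 in the same order, none of them called. Nap1l2 was lower than after paclitaxel (-0.72 ± 0.10, 0.0025), as were Nefl (-0.80 ± 0.14, 0.00688) and P2rx3 (-0.32 ± 0.07, 0.0191). Ecel1 rose with oxaliplatin but was higher still after paclitaxel, at 32.8 CPM against 13 after oxaliplatin (-1.33 ± 0.24, 0.00783), and Gal (-2.28 ± 0.23, 0.000298) and Atf3 (-1.06 ± 0.15, 0.00235) were also lower than after paclitaxel. For Kcnk3 (0.08 ± 0.19, 0.822), Tln1 (0.08 ± 0.08, 0.554), Por (0.10 ± 0.07, 0.374) and Psma5 (-0.09 ± 0.09, 0.515) no difference between the drugs was detectable at this spread.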

How the data were processed

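Dorsal root ganglia of rats were sequenced as 12 libraries, 4 per group, with the BGIseq500 kit from RNA taken up in Trizol, per the labels' protocols. CASAVA 1.4 and Bowtie2 are named in the submitters' processing notes. The genome build, the counting tool, the use of strand and the handling of reads that fit several genes are not given in the sources used here. Per the file headers, the authors deposited an expected count and an FPKM value for each gene and library; the expected counts are estimates that need not be whole, and FPKM divides them by transcript length and library total. Because the kit's strand use is unknown, reads of overlapping or antisense genes cannot be told apart.

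The libraries were joined on gene ID, with a gene absent from a file set to 0, which gave 20152 genes. Symbols came from the files, and 18549 IDs (92.0%) matched RefSeq's table (GRCr8), which replaced 58 symbols, 27 of them turned into dates. Expected counts, made whole by rounding, were fitted in edgeR 4.0.16 (R 4.3.3) with its default filter, TMM scaling, 3 group means over 12 libraries (9 residual degrees of freedom) and robust quasi-likelihood; 15809 genes were tested, two-sided, with Benjamini-Hochberg adjustment and a threshold of 0.05. The biological coefficient of variation (root of the common dispersion) was 0.159. Depth was even, 17008728 to 17615736 counts per library, so a gene at 1 CPM rested on about 17 counts. The SE beside a log2 fold change is its size divided by the root of edgeR's F statistic. It therefore includes the spread between libraries as well as counting error. The scripts were tested on simulated counts. Replicates differed by more than sampling noise, with a chi-square per gene of 11.1 to 22.3 between vehicle libraries and 18.5 to 32.7 between oxaliplatin libraries, so none was taken as a repeat deposit of another.

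The gene lists (66) and symbol families (30) were chosen with earlier results of these data known, and no list was tested as a set. Named genes were called, at a mean log2 CPM of at least 1, with a proper symbol, no overlap of the groups, and off the p53, cell cycle and clock lists: the 15 with the smallest p, the 5 with the largest fold and the 5 with the highest CPM in each direction. Added to them were up to 4 called members of each list described (or, with 0 called, the 2 with the smallest p) and the genes Atf3, Gal, Calca, Trpv1, Trpa1, Scn9a, Scn10a, Ccl2, Nap1l2 and Alox15. Alternatives were DESeq2 1.42.0, limma 3.58.1 (voom with quality weights, and trend on log2 of FPKM with a pseudocount of 1 or 0.1), other scalings and filters, the 8 libraries alone, the replicate number as a block, and leaving out each library. A few genes are not reported here.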

Additional observations from a re-analysis of the deposited data

Results flagged for a closer look

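In a group of 4, a library was singled out where its gap to the nearest other library made up more of the group's range than Dixon's critical value for groups of this size (95% level). Of 350 groups, from 124 genes and 51 list scores in vehicle and oxaliplatin, 24 were so marked; chance alone marks about 1 in 20. No explanation was weighed.

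Marks can share genes, so they are not independent of each other. Oxaliplatin 4 was marked most often. It was lowest for Alox15 (70.5 CPM) and for the score of eicosanoid enzymes (0.106), a list that holds Alox15. It was also lowest for the endothelial (0.18) and pericyte and smooth muscle (0.16) scores. It was highest for Scn1a (110 CPM), for Rbfox3 (112 CPM) and for the score of TRP, acid-sensing and mechanical channels (0.111). Oxaliplatin 1 was highest for Exoc3l2 (6.98 CPM) and the lysosome and autophagy score (0.0535) and lowest for Kitlg (56.2 CPM). Oxaliplatin 2 was highest for Pik3r1 (160 CPM). Oxaliplatin 3 was highest for Per2 (23.7 CPM) and lowest for the citric acid cycle (-0.171) and heat shock (-0.224) scores.

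Among vehicle libraries, vehicle 1 was lowest for Ccnf (2.25 CPM) and Hba1 (933 CPM). Vehicle 2 was highest for Ifi27l2b (155 CPM), lowest for Slitrk4 (18.6 CPM) and lowest for the channel score (-0.0816). Vehicle 3 was highest for Cidec (1.43 CPM) and lowest for Uqcrfs1 (101 CPM). Vehicle 4 was highest for Dnajb4 (65.8 CPM) and Slfn14 (0.0574 CPM, the others at 0) and lowest for Rhbdf2 (11.6 CPM).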

How the results depend on the processing

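The number of called genes depended strongly on the test. Against 166 higher and 112 lower genes, DESeq2 called 436 and 445, limma voom 328 and 271, limma trend on FPKM 256 and 74 with a pseudocount of 1 and 194 and 61 with 0.1, library totals alone 189 and 63, and the 8 libraries alone 102 and 59. The share of higher genes among those called was 59.7%, but 75% with library totals and 77.6% and 76.1% on FPKM. Other size factors, no filter and a stricter filter gave 134 to 165 higher and 90 to 117 lower genes. Leaving out 1 library gave 36 to 198 higher and 13 to 159 lower genes, and 571 to 3463 genes between the drugs against 1788; DESeq2 called 2795 there. The fits without a paclitaxel library, for the comparison with vehicle, were chosen after seeing the data.

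With the replicate number as a block, 50 genes were higher, 22 lower and 986 differed between the drugs. Deviations of same-numbered oxaliplatin and vehicle libraries correlated at 0.0179, 0.157, -0.0196 and 0.0739. Differently numbered ones correlated at -0.163 to 0.0593, so 0.157 and 0.0739 lay above all of these. So few values cannot decide whether the numbers mark pairs or batches. The numbers were not taken as pairs because the labels state no pairing.

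None of the 130 named genes reversed in 2859 comparisons with an alternative: 2303 stayed on the same side of the threshold, 545 lost it and 11 crossed it. Genes named as called and without overlap could hardly reverse on the same counts, so the lack of reversals lends them no support. Of 2112 medians of lists and families, 70 moved by more than the spread of the list's score. Medians close to 0 changed sign under some alternatives, in 5 of 22 for T and NK cells, 3 for macrophages, 5 for satellite glia, 5 for NRF2 genes, 12 for drug efflux and 1 for axon injury. The B-cell median ranged from 0.561 (FPKM, pseudocount 1) to 1.52 (without oxaliplatin 2), and the neutrophil median from -0.837 (without oxaliplatin 1) to -0.137 (without oxaliplatin 2). The complement median was 0.165 without vehicle 3, and the proteasome median -0.0973 without oxaliplatin 4. Depth limits genes near 1 CPM, where each library holds few counts. The causes of these changes were not tested.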
